A study of Mus musculus with 10 samples.

Results

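The cytosolic heat shock chaperones described here are a named set of 10 mouse genes: Hsph1, Hspa1a, Hspa1b, Hspa8, Dnaja1, Dnajb1, Hsp90aa1, Hsp90ab1, Bag3 and Hspb1. Each gene was read from the array row that names it alone, or, where several did, from the brightest of them on average. Such a row existed for 7 of the 10, among 30142 genes with one. All 7 lay above the floor on dim signals (log2 5.16, the median over transcript clusters), as did 18119 genes in all. Hspa1b and Dnaja1 were listed only on rows that also name another gene, and a row for Hsp90ab1 was not analysed here, so these 3 genes have no value of their own.

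The cells were 4T1, an established line of mouse mammary carcinoma that spreads readily from tumours grown in mice. In the HD group they were embedded in gels of 3.5 mg collagen per mL, and in the LD group in gels of 2 mg per mL, with 5 arrays of 1 sample each per group. Both groups started from 50000 cells and were kept for 5 days in RPMI with 10% serum, at 37 °C under 5% CO2, renewed on day 3, and the labels name no other cells. RNA was measured on Affymetrix mouse transcriptome arrays, to ask what a denser collagen matrix does to expression. The labels do not say that the 5 samples of a group were separate cultures, so p-values here reflect sample-to-sample spread only, and that spread may be technical. All levels are log2 RMA signals, errors are SD over 5 arrays unless named as SE, and changes are HD minus LD.

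Chaperones keep proteins folded. HSP70 proteins grip exposed stretches of an unfolded client with the help of J proteins (the Dnaj genes), which deliver clients and start ATP hydrolysis, and exchange factors such as the HSP110 protein Hsph1 and the Bag proteins end the cycle by releasing ADP. HSP90 proteins take over clients at a later stage, among them kinases and steroid receptors, and small heat shock proteins such as Hspb1 hold unfolded proteins without using ATP. When unfolded proteins accumulate, the transcription factor HSF1 induces many of these genes by binding heat shock elements, arrays of GAA units in alternating orientation, whereas Hspa8 and Hsp90ab1 are made constitutively in most cells.

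The proximal promoters are shown first because heat shock elements lie there in classical heat-induced genes. RefSeq's promoter table (GRCm38.p6) held 7 of the 10 genes, and the 250 bases before the first listed start were searched for a pair of inverted units, GAANNTTC or TTCNNGAA, each of which reads the same on both strands. A match was found in 5 of the 7 windows (Hsph1, Hspa1a, Hspa1b, Dnaja1 and Hspb1), against 12.9% of the 27025 promoters of this length in the table. Dnajb1 and Bag3 held neither run of letters in this window. Hspb1 held 2 matches that do not overlap, as at least 2 matches did in 1.40% of all promoters, and no window of the set held 3 alternating units in a row. Among the members with both a row of their own and a promoter entry, the windows of the 3 with the largest changes, and that of Dnajb1 for contrast, read as follows from 5′ to 3′ on the gene's strand, with matches in capitals.
Hsph1: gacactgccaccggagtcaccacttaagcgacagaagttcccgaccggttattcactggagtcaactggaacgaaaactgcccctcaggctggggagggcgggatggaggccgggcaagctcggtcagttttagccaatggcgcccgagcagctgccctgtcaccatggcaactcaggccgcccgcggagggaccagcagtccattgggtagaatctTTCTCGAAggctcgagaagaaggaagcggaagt
Hspa1a: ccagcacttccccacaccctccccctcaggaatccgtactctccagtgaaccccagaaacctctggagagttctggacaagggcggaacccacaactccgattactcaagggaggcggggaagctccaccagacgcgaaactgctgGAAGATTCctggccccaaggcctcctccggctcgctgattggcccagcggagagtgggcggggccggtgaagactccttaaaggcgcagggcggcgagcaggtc
Hspb1: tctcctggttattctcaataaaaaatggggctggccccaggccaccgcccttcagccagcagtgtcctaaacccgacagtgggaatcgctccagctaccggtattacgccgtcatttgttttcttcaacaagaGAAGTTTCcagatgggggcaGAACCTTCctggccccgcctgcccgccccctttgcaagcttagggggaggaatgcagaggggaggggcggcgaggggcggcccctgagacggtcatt
Dnajb1: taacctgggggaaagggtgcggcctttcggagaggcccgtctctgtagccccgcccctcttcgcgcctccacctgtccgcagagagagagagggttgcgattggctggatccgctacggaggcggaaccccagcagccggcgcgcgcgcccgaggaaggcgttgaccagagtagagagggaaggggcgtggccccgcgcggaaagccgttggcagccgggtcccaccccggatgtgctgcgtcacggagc
They lie at chr5:149636337-149636586 (minus strand), chr17:34972157-34972406 (minus strand), chr5:135887669-135887918 (plus strand) and chr8:83607925-83608174 (plus strand). The match of Hsph1 ends 26 bases before the listed start, that of Hspa1a 97 bases before it, and those of Hspb1 110 and 90 bases before it. The Hspa1b window was identical to that of Hspa1a at 247 of 250 bases and held the same match. Such a match describes letters and is not evidence of binding.

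Most of the chaperone set was higher in HD. Of the 7 genes with a row, 6 rose (limma, Benjamini-Hochberg adjusted p under 0.05 over all genes tested), none fell, and Hspa8 did not pass the test. The median change was 0.19 on the log2 scale, against 0.06 over all 18119 genes tested. Over all genes, 31.1% were called higher and 19.2% lower, 50.2% together, so a call of this kind was common on these arrays. The 5 HD values lay wholly above the 5 LD values for 5 of the 7 genes and for 21.3% of all genes. Under a scaling of each array on its control rows, the set had 5 genes higher and 1 lower. This is because Hsp90aa1 and Hspa8 moved as given with them. Of all 18119 genes, 9073 were then called higher and 3391 lower. The median change was then 0.17 for the set and 0.14 over all genes, so the medians lay closer together than as deposited. In size, Hsph1 stood first, with the 19th largest rise of all genes tested, and Hspa1a came next at 1.26-fold.

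**Figure D1:**
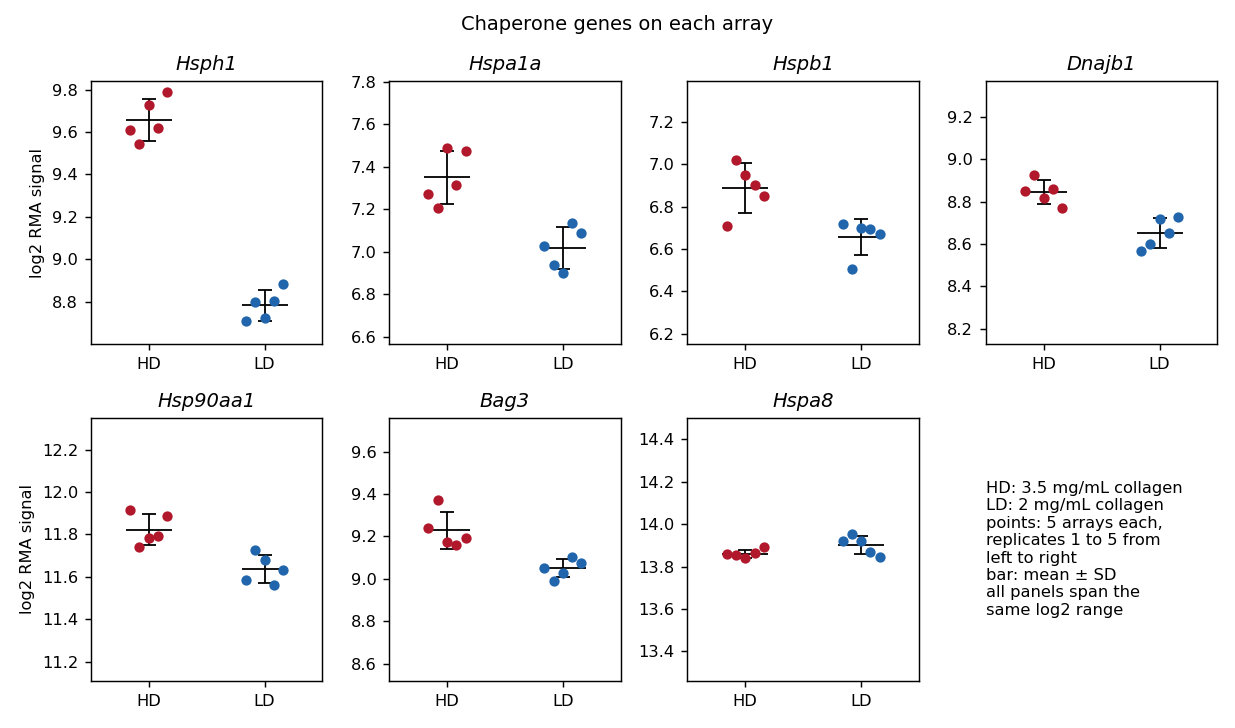
Each panel plots the log2 RMA signal of 1 gene on the 5 HD arrays (left) and the 5 LD arrays (right), with the mean and SD as bars, on axes that span the same log2 range. The HD points of Hsph1 (9.54 to 9.79) lie 0.66 above the highest LD point, the groups of Hspa8 and Hspb1 overlap, and those of the other genes lie closer together without overlap. Under control-row scaling the mean change of Hsp90aa1 was -0.09 instead of 0.19.

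Hsph1 encodes the HSP110 protein that releases ADP from HSP70. Its signal was 9.61, 9.54, 9.73, 9.62 and 9.79 in HD replicates 1 to 5, against 8.71, 8.80, 8.72, 8.80 and 8.89 in LD replicates 1 to 5. Every HD array was higher than every LD array. The mean was 9.66 ± 0.097 in HD and 8.78 ± 0.072 in LD (SD, n = 5 each), a 1.83-fold rise (log2 change 0.87 ± 0.051 SE, 95% interval 0.77 to 0.98, limma adjusted p = 3.41e-08). It was the single member past 1.5-fold, a size reached by 0.762% of all genes among the rises called. Within each array, the Hsph1 row minus the row of each of the other 6 members with a row was larger in HD than in LD, by 0.54 (against Hspa1a) to 0.92 (against Hspa8) on the log2 scale, and HD and LD arrays did not overlap in any of the 6. These differences were computed because Hsph1 had the largest change, so they are a description with no test.

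The other HSP110 genes, Hspa4 and Hspa4l, rose as well, by 1.30-fold (log2 change 0.38 ± 0.036 SE, limma adjusted p = 1.90e-06) and 1.24-fold (0.31 ± 0.058 SE, adjusted p = 0.0005). Hspa4 averaged 11.17 ± 0.049 in HD and 10.79 ± 0.036 in LD, and Hspa4l averaged 9.27 ± 0.12 in HD and 8.96 ± 0.081 in LD (SD, n = 5 each). Within arrays, the Hsph1 row minus the Hspa4 row was larger in HD by 0.50, and minus the Hspa4l row by 0.56, as a description chosen in the same way. After control-row scaling Hspa4 changed by 0.17 and was still called higher.

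Hspa1a encodes the stress-inducible HSP70. Its signal was 7.27, 7.21, 7.49, 7.31 and 7.47 in HD replicates 1 to 5, against 7.03, 6.94, 6.90, 7.14 and 7.09 in LD replicates 1 to 5. The groups did not overlap, though the lowest HD array lay only 0.07 above the highest LD array. The rise was 1.26-fold (log2 change 0.33 ± 0.062 SE, limma adjusted p = 0.000544), with means of 7.35 ± 0.125 in HD and 7.02 ± 0.0996 in LD (SD, n = 5 each). Another row lists Hspa1b together with Hspa1a, which are near-identical copies, and is not assigned to either gene. That row was brighter and gave 8.52, 8.52, 8.59, 8.48 and 8.46 in HD, against 7.70, 7.73, 7.85, 7.91 and 7.80 in LD, with no overlap. Its change was 0.72 ± 0.050 SE (limma adjusted p = 2.1e-06 in a fit over all 65956 transcript clusters, where 9.88% were called higher). The 2 rows gave rises of different size: the difference between them, computed after the values were seen, was 1.16 ± 0.13 in HD and 0.78 ± 0.11 in LD (SD, n = 5 each). Which of them measures the inducible HSP70 transcripts better was not tested.

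Hspa8 is the constitutive HSP70, and the row used for it did not pass the test. Its signal was 13.86, 13.85, 13.84, 13.86 and 13.89 in HD replicates 1 to 5, against 13.92, 13.95, 13.92, 13.87 and 13.85 in LD replicates 1 to 5. The groups overlapped, and the change was -0.04 ± 0.034 SE (95% interval -0.11 to 0.03, limma adjusted p = 0.324). The row lay 0.46 below the highest value on any array and was brighter than 99.95% of the genes tested, a range in which array signals can saturate, and whether it did so here was not tested. After control-row scaling the change was -0.50 (limma adjusted p = 0.000184), and after quantile normalization it was 0.03 and not called. By their identifiers, the 4 rows that name Hspa8 alone lie on chromosomes 1, 6 and 14, and the one used is on chromosome 6. Whether that row measures Hspa8 or a copy of it cannot be told apart from these files. The row on chromosome 9 lists Hspa8 together with Snord14c, Snord14d and Snord14e, small nucleolar RNAs made from Hspa8 introns, and was dimmer, at 11.82 ± 0.024 in HD and 11.84 ± 0.039 in LD (SD, n = 5 each). All 6 rows that list Hspa8 gave changes between -0.06 and -0.03, none of them called.

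The inducible HSP70 was also set against the constitutive one within each array. The Hspa1a row minus the row used for Hspa8 was -6.51 ± 0.12 in HD and -6.88 ± 0.14 in LD (SD, n = 5 each), a shift of 0.37 on the log2 scale with no overlap between the groups (exact permutation, two-sided, p = 0.0079). A shift common to all rows of an array cancels in this difference, but a saturated row cannot show a rise, so the shift is a difference between these 2 rows and not shown to be one in how the genes respond. It was 0.33 to 0.41 when any 1 array was left out. After control-row scaling it was 0.94. That scaling itself changes the gap between rows of unlike brightness, and differently in HD and LD, so the value is no check.

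The J protein Dnajb1, a heat-induced partner of HSP70, had signals of 8.85, 8.92, 8.82, 8.86 and 8.77 in HD replicates 1 to 5, against 8.57, 8.60, 8.72, 8.65 and 8.73 in LD replicates 1 to 5. The groups were separated by 0.04, and the rise was 1.14-fold (log2 change 0.19 ± 0.043 SE, limma adjusted p = 0.00213). The row that lists Dnaja1, another J protein, with the microRNA gene Mir207 was not assigned to either. It gave 9.54 ± 0.083 in HD and 9.28 ± 0.059 in LD (SD, n = 5 each), a change of 0.26 ± 0.050 SE without overlap (limma adjusted p = 0.00215 over all transcript clusters).

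Bag3, a co-chaperone that links HSP70 clients to autophagy, had signals of 9.24, 9.37, 9.17, 9.16 and 9.19 in HD replicates 1 to 5, against 9.05, 8.99, 9.03, 9.10 and 9.08 in LD replicates 1 to 5. HD replicate 2 was the highest array, and the groups did not overlap. The rise was 1.13-fold (log2 change 0.18 ± 0.044 SE, limma adjusted p = 0.00436).

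Hspb1, the small heat shock protein known as Hsp25 in mice, had signals of 6.71, 7.02, 6.95, 6.90 and 6.85 in HD replicates 1 to 5, against 6.72, 6.50, 6.70, 6.69 and 6.67 in LD replicates 1 to 5. HD replicate 1 lay among the LD arrays, while the other 4 HD arrays were above them all. The rise was 1.17-fold (log2 change 0.23 ± 0.058 SE, limma adjusted p = 0.00468), and the change was 0.37 after control-row scaling.

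Hsp90aa1, the inducible HSP90, had signals of 11.91, 11.74, 11.78, 11.79 and 11.89 in HD replicates 1 to 5, against 11.59, 11.73, 11.68, 11.56 and 11.63 in LD replicates 1 to 5. The lowest HD array was 0.01 above the highest LD array. The rise was 1.14-fold as deposited (log2 change 0.19 ± 0.045 SE, limma adjusted p = 0.00389), but the change was -0.09 and not called after control-row scaling (adjusted p = 0.256). A further 2 rows list Hsp90aa1 together with the predicted genes Gm5844 and Gm12346, and changed by 0.21 and 0.24 with no overlap between HD and LD. By their identifiers they lie on chromosomes 3 and 11, while the row used for Hsp90aa1 lies on chromosome 12. Whether they measure Hsp90aa1 or copies of it was not tested. Both were brighter than the row used, and their values are as deposited, without control-row scaling. The constitutive partner Hsp90ab1 was not analysed here, so the pair could not be compared.

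**Figure D2:**
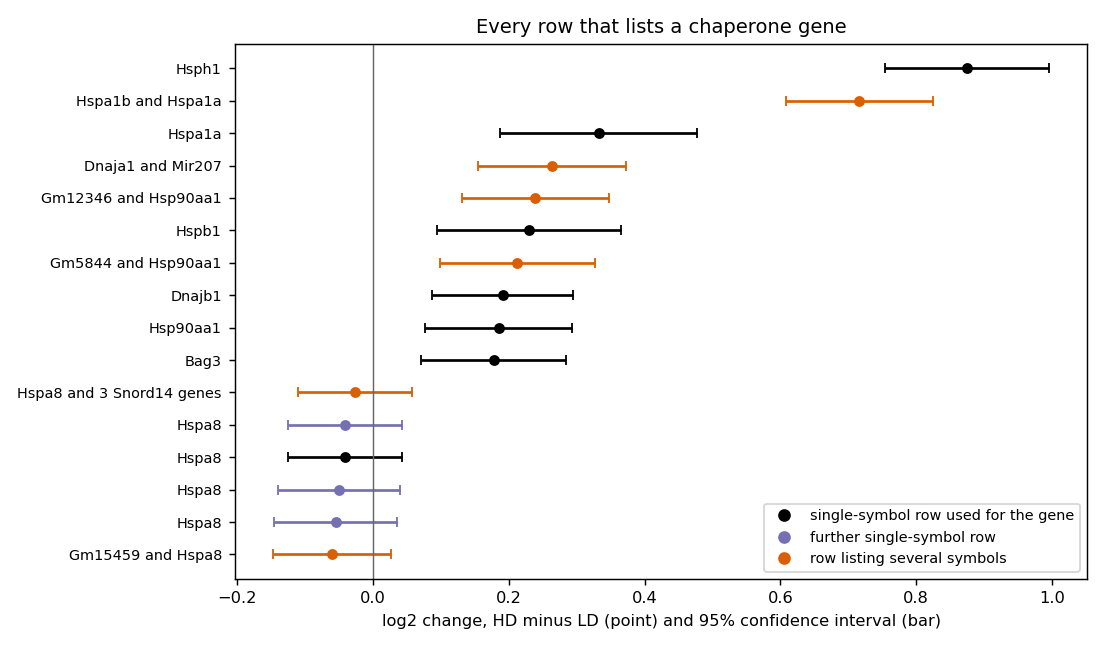
The log2 change (HD minus LD) of each of the 16 array rows that list a gene of the set is plotted with its 95% confidence interval, from the fit over all transcript clusters. Hsph1 and the row shared by Hspa1b and Hspa1a lie highest, at 0.87 and 0.72, and the 6 rows that list Hspa8 lie between -0.06 and -0.03.

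Within a density, the chaperones did not vary together as 1 block. Deviations from the group means over the 10 arrays were correlated between the 7 genes with a median Pearson r of -0.23 over 21 pairs, and 7 pairs were above 0. The highest value was 0.80, between Hsph1 and Hspa1a, and the lowest was -0.86, between Hsp90aa1 and Hspb1. These values describe 10 arrays that share their normalization. The genes whose deviations were most like the mean of the set were Mmd (r = 0.91), Ybx3 (0.91), Csrnp1 (0.90), Gpr155 (0.89) and Scx (0.88), the 5 highest of 13079 genes compared over the same arrays. Of these, Mmd, Ybx3, Csrnp1 and Gpr155 were also higher in HD, by 0.23 to 0.35 on the log2 scale, beside 31.1% of all genes. Scx was not called (0.03, limma adjusted p = 0.568). The likeness describes these arrays and says nothing of shared function. It is to a mean of genes that mostly did not vary together. Whether the best of so many genes reach such values by chance was not tested. After control-row scaling the changes were 0.07 for Ybx3, not called, 0.44 for Csrnp1 and 0.49 for Gpr155.

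Co-chaperones of HSP90 were mostly higher in HD. Of 19 tested, 15 rose and none fell, beside 31.1% and 19.2% of all genes, and the median change of the list was 0.21 (log2). HD lay wholly above LD for 12 of the 19 and for 21.3% of all genes. After control-row scaling 12 rose, when 9073 of all 18119 genes did. Cdc37, which loads kinases onto HSP90 and is named after its value was seen, fell under that scaling (-0.15 in place of -0.01). Cacybp, a binder of S100 proteins, averaged 10.94 ± 0.11 in HD and 10.37 ± 0.10 in LD (SD, n = 5 each), 1.49-fold higher (log2 change 0.58 ± 0.059 SE, limma adjusted p = 3.41e-06). Nudcd2 and the phosphatase Ppp5c rose by 0.46 each. Among genes named after their values were seen, Ptges3 (p23), Ahsa1, which speeds HSP90's ATPase, and Stip1, which bridges HSP70 and HSP90, rose by 0.38, 0.38 and 0.33. Of these 3, the Stip1 call ended after control-row scaling (0.10, adjusted p = 0.0652).

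The HSP70 partners held rises and no falls. Of 7 tested exchange factors and other partners, 5 rose and none fell (median 0.17), beside 31.1% and 19.2% of all genes. After control-row scaling or quantile normalization 4 rose, when 9073 and 7124 of all 18119 genes did. The exchange factors Bag1 and Hspbp1 rose by 0.40 ± 0.051 and 0.36 ± 0.062 (SE), and Bag2, an inhibitor of client ubiquitination, by 0.27 ± 0.039. Of 7 other HSP70 and HSP110 genes, 5 rose and none fell (median 0.15), beside the same shares of all genes. The median of this list was 0.29 after control-row scaling, when that of all genes was 0.14 in place of 0.06. The rises included Hspa4 and Hspa4l, and Hspa14, a ribosome-associated HSP70, at 0.22 ± 0.045 SE. The other 2 were Hspa12a and Hspa12b, named after their values were seen, at 0.14 and 0.15. Without LD replicate 2 neither was called and the count of rises was 3, and it was 4 to 6 without any other array.

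J proteins other than the members went both ways. Of 14 tested, 7 rose and 3 fell, beside 31.1% and 19.2% of all genes. The median of the 14 was 0.10, or 0.13 after control-row scaling, when that of all genes was 0.14. After control-row scaling 8 rose and 2 fell, when 9073 and 3391 of all 18119 genes did. After quantile normalization 9 rose and 2 fell, when 7124 and 3130 of all genes did. Without HD replicate 1, 5 rose and 3 fell. Dnajc9, a histone chaperone, rose by 0.43 ± 0.050 SE, with means of 8.56 ± 0.062 in HD and 8.13 ± 0.0999 in LD (SD, n = 5 each), and Dnajc2, which works at the ribosome, rose by 0.37 ± 0.041 SE. Dnajb4, a relative of Dnajb1, fell by 0.37 on the log2 scale (SE 0.037, limma adjusted p = 2.41e-06), at 7.14 ± 0.041 in HD and 7.51 ± 0.050 in LD (SD, n = 5 each). The other falls, named after their values were seen, were Dnajc5 (-0.14) and Dnajb2 (-0.10), and the Dnajb2 call ended after quantile normalization, after control-row scaling and without LD replicate 3.

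**Figure D3:**
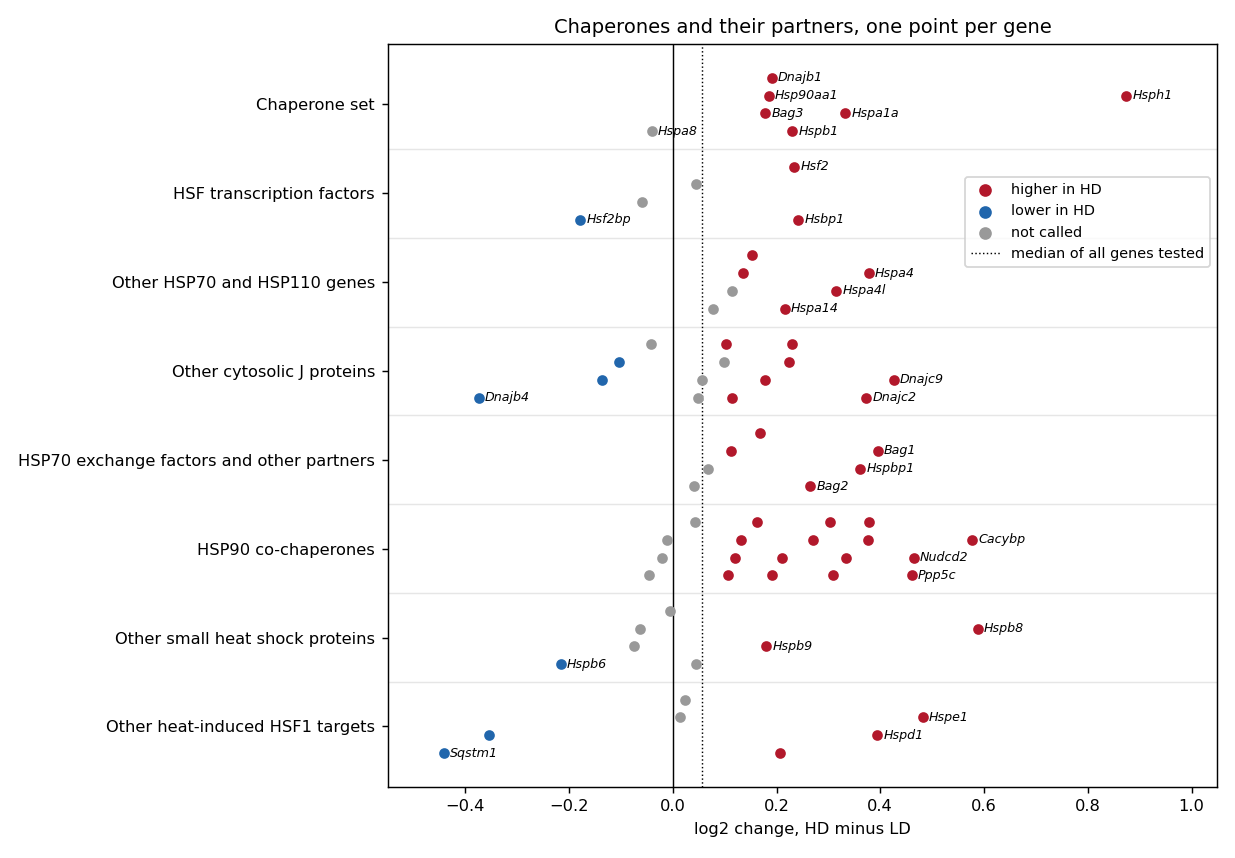
Each point is the log2 change (HD minus LD) of 1 gene, set out by list, with genes called higher in red, called lower in blue and not called in grey; the dotted line is the median of all genes tested (0.06). Of 19 HSP90 co-chaperones 15 lie above 0 as calls, while small heat shock proteins and further HSF1 targets lie on either side.

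The heat shock factors and their direct partners went both ways as deposited. Hsf1 was not analysed here, since no row names it alone. Hsf2, which can pair with HSF1, averaged 8.08 ± 0.11 in HD and 7.85 ± 0.041 in LD (SD, n = 5 each), a change of 0.23 ± 0.050 SE (limma adjusted p = 0.00152). Hsbp1, a small protein that binds and restrains HSF1, rose by 0.24 ± 0.039 SE as deposited and by 0.05, not called, after control-row scaling. Hsf2bp, a partner of HSF2, fell by 0.18 on the log2 scale as deposited, but changed by 0.07 after control-row scaling. Its signals of 5.45 in HD and 5.63 in LD lay near the floor. Of the 5 genes tested in this list, 2 rose and 1 fell, beside 31.1% and 19.2% of all genes. The median was 0.05, or 0.01 without HD replicate 3. After control-row scaling 3 rose and none fell (median 0.22), when 9073 of all 18119 genes were called higher and 3391 lower. Hsf4 and Hsf5, named after their values were seen, were then called higher at 0.25 and 0.22 in place of 0.05 and -0.06. Hsf5, at 5.19 in HD and 5.25 in LD, also lay near the floor.

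Among small heat shock proteins other than Hspb1, 2 of 7 tested rose and 1 fell, near the 31.1% and 19.2% of all genes. The median of the list was -0.01 (0.06 after quantile normalization and 0.11 after control-row scaling). The medians of all genes under these settings were 0.08 and 0.14. Hspb8, the partner of Bag3 in clearing misfolded proteins, averaged 9.34 ± 0.097 in HD and 8.76 ± 0.053 in LD (SD, n = 5 each), 1.503-fold higher (log2 change 0.59 ± 0.048 SE, limma adjusted p = 5.11e-07). Hspb6 fell by 0.22 on the log2 scale (SE 0.054), with HD and LD arrays overlapping. Hspb9 rose by 0.18 ± 0.067 SE (limma adjusted p = 0.0372), a call that ended without LD replicate 1, 2, 3 or 5 or HD replicate 3, 4 or 5. Cryab, which encodes alpha B-crystallin and was picked out after its value was seen, had a change of 0.04 (adjusted p = 0.376).

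Other genes known as heat-induced HSF1 targets were split, with 3 of 7 higher and 2 lower, beside 31.1% and 19.2% of all genes. The median of the list was 0.02, or 0.16 after control-row scaling, when that of all genes was 0.14 in place of 0.06. The mitochondrial chaperonin pair Hspe1 and Hspd1 rose by 0.48 ± 0.034 and 0.39 ± 0.047 (SE, limma adjusted p = 1.54e-07 and 1.17e-05), and Hspd1 by 0.23 after control-row scaling. Hspe1 averaged 9.62 ± 0.024 in HD and 9.14 ± 0.042 in LD (SD, n = 5 each). Sqstm1, the autophagy receptor p62, fell by 0.44 on the log2 scale (SE 0.040, limma adjusted p = 1.31e-06), at 10.46 ± 0.048 in HD and 10.90 ± 0.064 in LD (SD, n = 5 each). The other fall was in Zfand2a, a heat- and arsenite-induced zinc finger gene named after its value was seen, at -0.35 ± 0.048 SE. Over all 7 lists of partners and relatives, 39 of 66 tested genes rose and 7 fell (median 0.13), beside the 31.1% and 19.2% of all genes.

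Other features of the arrays moved with the groups, and their part in these changes was not tested. The median of the negative control rows was 5.42 ± 0.12 in HD and 5.67 ± 0.052 in LD, and that of the positive control rows 9.28 ± 0.045 in HD and 9.21 ± 0.011 in LD (SD, n = 5 each, exact permutation p = 0.0079 for both). The background rows went the other way from the negative controls, at 3.63 ± 0.057 in HD and 3.47 ± 0.055 in LD (exact permutation p = 0.0079, n = 5 each), and the AFFX spike-in rows gave 9.80 ± 0.11 in HD and 9.63 ± 0.11 in LD (exact permutation p = 0.048, n = 5 each). Control-row scaling used the negative and the positive control rows. All 9 epithelial markers were above the floor, and 5 of them, Epcam, Cdh1, Krt18, Krt19 and Cldn4, were lower in HD, beside 19.2% of all genes. Krt8, Krt7, Cldn3 and Cldn7 were not called, with changes of 0.03, -0.04, 0.05 and 0.02. The call of Cdh1 ended under 1 of 19 alternatives. The mean signal of the 9 ran from 9.97 to 10.10 in HD and from 10.31 to 10.35 in LD. Of the markers of other cell types, all 5 endothelial ones, 6 of 7 leukocyte ones (Ptprc among them) and 2 of 7 fibroblast ones (Dcn and Lum) lay below the floor. Above it were Cd3e, called higher in HD, and Col1a1, Col1a2, Col3a1, Pdgfrb and Thy1, of which Col3a1 and Thy1 were called higher in HD. The floor lies below both negative control medians. In LD, Cd3e, Col3a1, Pdgfrb and Thy1 averaged 5.29, 5.65, 5.44 and 5.54, below the median of 5.67. In HD they averaged 5.45, 5.80, 5.55 and 5.65, against a median of 5.42, so these signals lay near those of the negative controls. Col1a1 and Col1a2 averaged above those medians in both groups. The call of Cd3e ended under 4 of 18 alternatives and that of Col3a1 under 7 of 18. Both ended without HD replicate 3 or LD replicate 1 or 2. The mean signals of these lists ran from 4.29 to 4.35 in HD and 4.20 to 4.30 in LD for endothelial markers, from 4.38 to 4.48 in HD and 4.31 to 4.37 in LD for leukocyte markers, and from 5.20 to 5.41 in HD and 5.11 to 5.26 in LD for fibroblast markers.

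**Figure D4:**
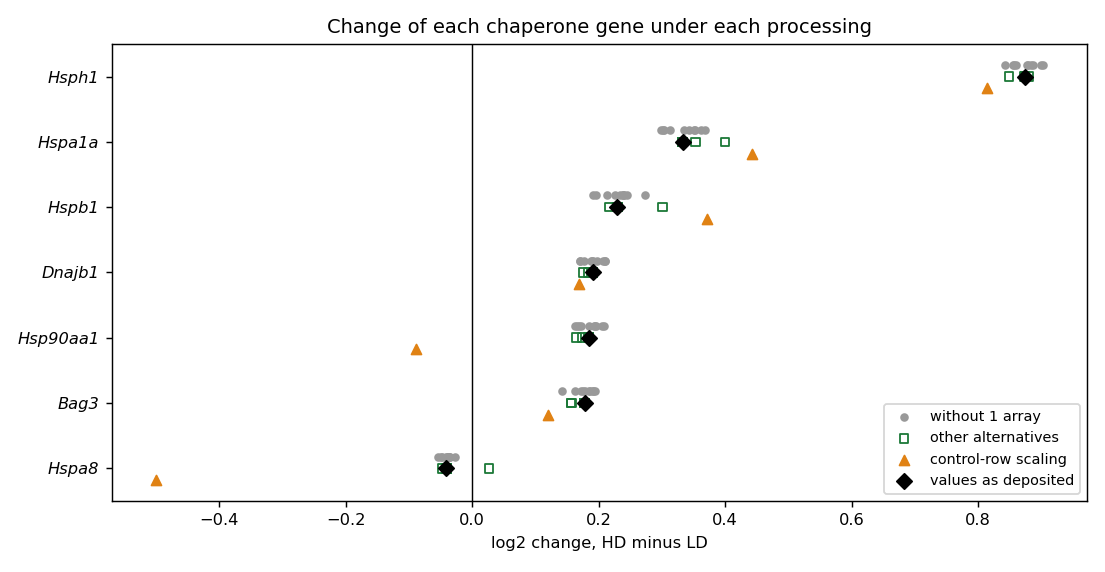
The log2 change (HD minus LD) of each of the 7 genes is shown for the values as deposited (diamond), without each array in turn (grey), under control-row scaling (triangle) and under the other alternatives (squares). Hsph1 stays between 0.81 and 0.90, while control-row scaling takes Hsp90aa1 to -0.09 and Hspa8 to -0.50.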

How the data were processed

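Per the submitters' processing notes, the deposited log2 values were made by the authors with RMA, which corrects background, equalises arrays and summarises probes per row. Software, annotation and genome build: not given in the sources used here. Values between 1.49 and 14.3 fit a log2 scale. RMA compresses folds, so folds are ratios of RMA signals. The table held 72688 rows, 65956 of them transcript clusters. The platform annotation named 1 symbol for 30604 rows and several for 2146; 33206 transcript clusters had none. Gene IDs of 22818 rows matched RefSeq, which updated 827 symbols.

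The test of HD against LD used limma 3.58.1 (R 4.3.3; lmFit, eBayes, no covariates, two-sided, Benjamini-Hochberg over 18119 genes, threshold 0.05), and single within-array differences with exact permutation tests (scipy 1.17.1). The fit was tested on simulated data. No set test was run. The number of arrays limits the precision. Same-numbered arrays deviated from their group means with correlations of -0.09 to 0.21, so numbers were not taken as pairs. The members and lists were chosen with earlier results of these data known. The text names the members, Hsf1 and Hsf2, the 3 called genes of each list with the largest absolute change and the 5 genes most like the set, except unannotated genes; other list genes are said to be named after their values were seen, and cell type markers are named as a check.

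Alternatives were a replicate block, quantile normalization, median centring, control-row scaling (each array mapped linearly to common medians of negative and positive control rows), no filter, a stricter filter (75th percentile, log2 6.88), the mean of a gene's rows, trended and robust variance, array weights and leaving out each array; a fit of every transcript cluster and further row pairs were added after seeing the data.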

Additional observations from a re-analysis of the deposited data

Results flagged for a closer look

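For 56 tested genes that the text names, the 5 HD and 5 LD arrays were each examined for an array far from the rest of its group, and 6 of 112 groups had one, where chance alone gives about 1 in 20. Hspb1 in LD replicate 2 was lowest at 6.505, against 6.671 to 6.717 on the other LD arrays; without that array the rise of Hspb1 was still called. Hspb8 in HD replicate 2 was highest at 9.513, against 9.271 to 9.326. Ppp5c in LD replicate 5 was highest at 8.565, against 8.468 to 8.486. Hspd1 in LD replicate 1 was lowest at 10.166, against 10.253 to 10.271. HD replicate 3 was highest for Hsf4, at 6.189 against 6.028 to 6.045, and for Cd3e, at 5.584 against 5.396 to 5.443.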

How the results depend on the processing

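Hsph1, Hspa1a, Dnajb1, Bag3 and Hspb1 stayed higher in HD and called under every alternative that gave a value, with changes of 0.81 to 0.90, 0.30 to 0.44, 0.17 to 0.21, 0.12 to 0.19 and 0.19 to 0.37; the stricter filter left no value for Hspb1. The difference Hspa1a minus Hspa8 kept its direction, at 0.33 to 0.41 without 1 array and 0.37 after quantile normalization, where it was still called. Leaving out 1 array could not end the call, because groups without overlap stay apart when an array is removed. The control-row value of 0.94 was added after seeing the data. That scaling changes the gap between a dim and a bright row by an amount set by each array's control rows. It is therefore no check of this difference. Pairs with Hsp90ab1 and Hspa1b were not run for want of a row. Control-row scaling was the setting that changed calls among the set: the change was -0.0884 for Hsp90aa1 (adjusted p = 0.256) and -0.499 for Hspa8 (adjusted p = 0.000184), and 9073 genes were called higher and 3391 lower, in place of 5626 and 3475, with the median of all genes at 0.14 in place of 0.06. It maps each array linearly by control rows dimmer than Hsp90aa1 and Hspa8. The negative and positive control medians lay further apart in HD (5.42 and 9.28) than in LD (5.67 and 9.21). On average the mapping thus lowers such bright rows in HD relative to LD. Why the control rows differ between the groups was not tested. Higher genes made up 61.8% of calls as deposited, 69.5% after quantile normalization and 72.8% after control-row scaling. Without 1 array, 4712 to 5658 genes were called higher and 3060 to 3506 lower. With the replicate block, Hsph1 changed by 0.87 (adjusted p = 7.836e-07), 5712 genes rose and 3409 fell, and no call in the set was changed by the block. Among 49 other named genes, 866 of 918 values kept direction and call. Under control-row scaling Hsf2bp reversed to 0.0715 and Hsf5 to 0.215. A further 34 values fell short of the threshold, most often for Hspb9, Hspa12b and Col3a1, and 16 passed it newly, for Cdc37, Hsf4, Col1a1, Col1a2 and Pdgfrb.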
